A study of Mus musculus with 6 samples.

Results

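The 9 genes described here, *Fmn2*, *Spire1*, *Spire2*, *Arpc2*, *Actr2*, *Actr3*, *Cfl1*, *Pfn1* and *Myo5b*, encode factors that make, remodel or move along actin filaments in the oocyte. They were taken by symbol from the 25899 genes of the deposited table, and each had 1 row. The data were RNA-Seq libraries of oocytes from aged female (AF) mice, labelled as strain CD1 and as 58 weeks old. All 6 libraries shared the same preparation. Females received 5 IU pregnant mare serum gonadotropin 46 h before collection, oocytes were isolated in 100 µM IBMX, a phosphodiesterase inhibitor that holds them in prophase, and they were then cultured without it for 180 min until nuclear envelope breakdown (NEBD). Ribosomes were halted with 0.1 mg/ml cycloheximide for 10 min, and a pool of 200 oocytes made 1 lysate. Centrifugation through a sucrose gradient gave 10 fractions of each lysate, which were combined into a non-polysomal (NP) pool, with free mRNA and lighter ribosomal particles, and a polysomal (P) pool, with mRNA carrying several ribosomes. There were 3 NP and 3 P libraries. Libraries of young females were not analysed here, so no value below bears on age. No source used here says whether the 3 pools came from separate groups of females, so p-values measure the spread between these samples only.

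In mammalian oocytes the meiotic spindle forms near the centre and is moved to the cortex by actin, not by astral microtubules as in many somatic cells. The formin Fmn2 and the Spire proteins nucleate unbranched filaments together and build a cytoplasmic mesh, whose nodes are vesicles carrying Rab11 and the motor myosin Vb. The Arp2/3 complex nucleates branched filaments, and is required at the cortex that overlies the spindle and for the asymmetric division that gives a small polar body. Cofilin severs old filaments and profilin loads monomers for new ones.

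Fully grown oocytes make almost no new mRNA, and the movement of stored mRNAs onto ribosomes is governed in part by letters near the end of the 3′ UTR. The best known are the cytoplasmic polyadenylation element (CPE), searched here as TTTTAT or TTTTAAT, and the polyadenylation signal, searched as AATAAA or ATTAAA, both on the transcript strand and in the last 100 bases of 1 transcript per gene. A CPE spelling was present in 2 of the 9 genes, *Actr2* and *Spire1*, against 17.9% of 19585 genes with a 3′ UTR of that length, and a signal was present in 8, against 78.5%. The gene without a signal in the window was *Spire2*. The 30 bases that end with the last signal are given for the 3 Arp2/3 subunits, because *Actr2* was the gene with a higher mean in P than in NP. They are in GENCODE M21 (GRCm38) transcript sense, 5′ to 3′, with the CPE spelling and the last signal in capitals.
Actr2: aatatacttctTTTTAATtaagaaAATAAA
Actr3: atgaagaaaaagtgatgacaataaATTAAA
Arpc2: taaagaaatacggttggggtcattAATAAA
In *Actr2* the CPE spelling starts 37 bases from the transcript end and the signal 24 bases from it. In *Spire1* the CPE spelling starts 49 bases from the end. These matches describe letters in 1 annotated transcript and say nothing of binding or of the transcript end used in these oocytes. The log2 ratio of P over NP was 0.80 for *Actr2* (adjusted p 0.742 in limma), and 0.06 without P replicate 1. For *Spire1*, the other gene with a CPE spelling, it was -1.29. A link between the CPE and the fractions was not tested.

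The deposited unit was FPKM, fragments scaled to exon length and to the mapped reads of the library, so levels can be compared between genes per length. The depth of the libraries was not given with the values, and was recovered from the step between low values. It ran from 1237799 to 18096676 steps in NP and from 163822 to 1549317 in P, with P replicate 1 the shallowest. What 1 step counts was not settled, and it is called a read below. FPKM summed over all genes to between 597277 and 633211 in NP and between 246215 and 393926 in P, so P values lay lower in general and 80.1% of the 10578 genes tested had a P/NP ratio below 1. All 10 oocyte marker genes were detected, with a summed level between 4665 and 13051 FPKM. Of 12 granulosa cell markers, 7 were listed at 0 in every library (among them *Amh*, *Fshr* and *Foxl2*), and the list summed to between 11.2 and 131 FPKM in NP and between 2.28 and 16.5 in P. Most of that sum was *Cyp19a1*, whose NP libraries held 7.15, 22.5 and 104 FPKM against 15.4, 0 and 0 for P, and *Nr5a2*, whose NP libraries held 3.37, 6.32 and 26.9 FPKM against 0, 5.71 and 1.18 for P. The part of granulosa cell RNA in the values below was not tested. All 6 blood markers in the table were at 0. Fewer cells of a kind and less RNA per cell cannot be told apart in such pools.

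For the 9 genes the comparison of P with NP asks whether the relative level of an mRNA differed between the 2 pools after NEBD. FPKM is scaled within each library, so the comparison does not give the part of an mRNA that was on polysomes. None of the 9 passed the threshold of an adjusted p of 0.1 in limma, which 1.82% of all genes tested did (192 genes, 190 or 1.8% lower in P and 2 or 0.0189% higher). At an unadjusted p of 0.05, 2 of 9 passed, *Arpc2* and *Spire2*, against 15.8% of all genes. In 5 of 9 (*Fmn2*, *Spire1*, *Spire2*, *Cfl1* and *Myo5b*) every P value lay below every NP value, a pattern of 23.2% of all genes, and in none did every P value lie above, a pattern of 0.633%. That count of 5 became 2 after scaling the libraries to a common FPKM sum (12.4% of all genes), 1 with a median-of-ratios scaling (12.1%) and 0 with quantile normalization (7.82%). The P/NP ratio had a log2 median of -1.30 for the 9 genes and of -1.03 over all genes.

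**Figure D1:**
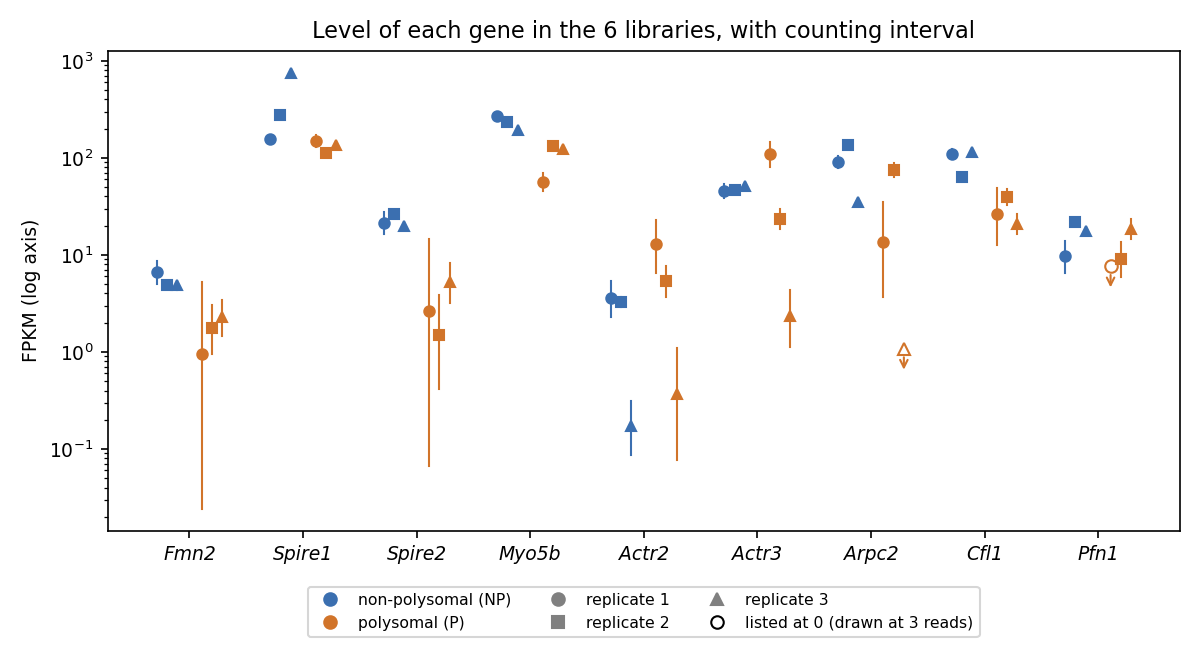
FPKM on a log axis of the 9 genes in each NP (blue) and P (orange) library, with symbols for the replicates and 95% Poisson counting intervals as lines. Open symbols are the 2 values listed at 0, drawn at the level of 3 reads. The P values of *Actr3* run from 2.35 to 108.9 FPKM while its NP values lie between 45.9 and 51.8.

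*Fmn2* (chr1:174501825-174822717, plus strand of GRCm38, the span of the whole gene, with exons counted) encodes the formin that nucleates the spindle-moving mesh. Its level was 6.66, 4.94 and 4.86 FPKM in NP replicates 1 to 3 and 0.949, 1.77 and 2.31 FPKM in P. All P values were lower than all NP values, and the NP libraries were within 1.37-fold of each other. The means were 5.49 ± 1.02 FPKM in NP and 1.68 ± 0.685 in P (SD, n = 3 each), and the log2 ratio of -1.30 (SE 1.17, 95% interval -3.72 to 1.12) had an adjusted p of 0.548 in limma. The P values rested on 1, 13 and 23 reads, so the value in P replicate 1 was at the limit of detection. Under quantile normalization the log2 ratio was 0.22. *Fmn2* ranked low among the 9 genes, eighth in NP and ninth in P, and sat between percentiles 72.9 and 82.4 of all genes in the 6 libraries.

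*Spire1* (chr18:67488209-67552777, minus strand) encodes the nucleator that works with Fmn2, and it had the highest mean of the 9 genes in both fractions. Its level was 157, 280 and 752 FPKM in NP and 149, 113.0 and 134 FPKM in P. The NP libraries spread 4.78-fold, with replicate 3 far above the others, while the P libraries were within 1.31-fold. The lowest NP value stood only just above the highest P value. The log2 ratio was -1.29 (SE 0.74, 95% interval -2.81 to 0.24) with an adjusted p of 0.393 in limma, and -0.67 without NP replicate 3. At 189 reads or more in every library, and at percentiles 97.1 to 99.5, it had the most reads of the 3 nucleators among the 9 genes.

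*Spire2* (chr8:123332713-123369515, plus strand) encodes the second Spire protein. Its level was 21.5, 26.5 and 19.95 FPKM in NP and 2.62, 1.50 and 5.26 FPKM in P. The groups did not overlap, and NP was even, within 1.33-fold. The mean was 22.7 ± 3.44 FPKM in NP and 3.13 ± 1.93 in P (SD, n = 3 each), a 7.24-fold gap, which was the widest of the 9 genes. On the log2(FPKM + 1) scale the ratio was -2.61 (SE 1.15, 95% interval -5.00 to -0.22), with an unadjusted p of 0.0334 and an adjusted p of 0.282 in limma. Reads in P numbered 1, 4 and 19. A further row, *Gm20388*, overlaps *Spire2* on the same strand and held 14.3, 25.7 and 64.4 FPKM in NP and 0, 0.665 and 17.6 FPKM in P, so the share of reads that belongs to each is uncertain.

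Within a library, a ratio of 2 genes does not depend on the scaling of that library. *Spire1* exceeded *Spire2* by 7.32-, 10.5- and 37.7-fold in NP and by 56.7-, 75.1- and 25.5-fold in P, and these ranges overlapped. *Fmn2* stood at 0.310, 0.186 and 0.244 of the *Spire2* level in NP and at 0.362, 1.18 and 0.439 of it in P, without overlap. In P replicate 1 both genes rested on 1 read, so the lowest P ratio, 0.362, reflects their exon lengths alone. Of the 21 pairs among the 7 genes detected in all libraries, 4 had ranges that did not overlap, beside 16.5% of all pairs of genes detected in all libraries, a share that 4 of 21 does not stand far from. The pairs named were picked after their values were seen.

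*Actr2* (chr11:20062304-20112913, minus strand) encodes Arp2, which with Arp3 forms the start of a new branch. Its level was 3.57, 3.26 and 0.174 FPKM in NP and 12.9, 5.39 and 0.372 FPKM in P. It was the only one of the 9 genes with a higher mean in P, yet the groups overlapped, because P replicate 3 lay within the NP range. Replicate 3 was the lowest library in both fractions. The log2 ratio was 0.80 (SE 1.25, 95% interval -1.78 to 3.39) with an adjusted p of 0.742 in limma, and 0.06 without P replicate 1. By percentile within the library, *Actr2* stood at 71.1, 69.7 and 66.7 in NP and at 88.0, 81.0 and 76.1 in P. Only 24.1% and 26.7% of genes were above 0 in P replicates 1 and 3, so any detected gene ranked high there, and the percentiles are no measure of a shift between fractions. Reads were few, at 23, 307 and 11 in NP and 11, 32 and 3 in P.

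*Actr3* (chr1:125392905-125435727, minus strand) encodes Arp3. Its level was 45.9, 46.6 and 51.8 FPKM in NP and 108.9, 23.6 and 2.35 FPKM in P. The NP libraries were the most even of the 9 genes, within 1.13-fold, and the P libraries spread 46.3-fold around them. The P values rested on 49, 74 and 10 reads, and their 95% Poisson intervals (80.6 to 144, 18.5 to 29.6 and 1.13 to 4.32 FPKM) did not overlap. These intervals cover counting error only, not amplification or differences between pools. The log2 ratio of -1.23 (SE 1.13, 95% interval -3.58 to 1.12) had an adjusted p of 0.556 in limma. It was -2.43 without P replicate 1 and 0.08 without P replicate 3.

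*Arpc2* (chr1:74236497-74268209, plus strand) encodes a core subunit that holds the complex on the mother filament. Its level was 90.5, 135 and 35.1 FPKM in NP and 13.6, 74.7 and 0 FPKM in P. P replicate 2 lay among the NP values, so the groups overlapped, and P replicate 3 was listed at 0 where 3 reads would give 1.08 FPKM. The log2 ratio was -2.89 (SE 1.26, 95% interval -5.50 to -0.28), the lowest of the 9, with an unadjusted p of 0.0318 and an adjusted p of 0.281 in limma. It was -4.33 without P replicate 2 and -1.21 without P replicate 3.

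The proportions of the 3 subunits varied between libraries. *Actr3* stood at 0.507, 0.344 and 1.48 of the *Arpc2* level in NP and at 8.003 and 0.316 of it in P replicates 1 and 2. It was 12.9-, 14.3- and 298-fold above *Actr2* in NP and 8.44-, 4.38- and 6.32-fold above it in P, 1 of the 4 pairs without overlap. *Actr2* and *Actr3* were each other's nearest profile among the 9 genes, with a root mean square difference of 1.33 on the centred log2 scale over 6 libraries, both highest in P replicate 1 and lowest of the P libraries in replicate 3. *Arpc2* was highest of all 6 libraries in NP replicate 2. Among its P libraries replicate 2 was the highest and replicate 3 again the lowest.

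*Cfl1* (chr19:5490485-5494029, plus strand) encodes cofilin 1. Its level was 109.8, 63.8 and 115 FPKM in NP and 26.6, 39.7 and 20.8 FPKM in P. Every P value was lower than every NP value, and each fraction was within 1.91-fold. The means were 96.2 ± 28.2 FPKM in NP and 29.0 ± 9.67 in P (SD, n = 3 each), and the log2 ratio of -1.70 (SE 0.89, 95% interval -3.54 to 0.15) had an adjusted p of 0.351 in limma. Leaving out any 1 library gave between -1.97 and -1.49, and scaling by median-of-ratios, by quantiles and to a common sum gave -0.72, -0.60 and -0.78.

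*Pfn1* (chr11:70651850-70654644, minus strand) encodes profilin 1. Its level was 9.74, 22.1 and 17.7 FPKM in NP and 0, 9.11 and 18.5 FPKM in P. The groups overlapped, with P replicate 3 above 2 of the NP libraries. The 0 stood in the shallowest library, where 3 reads would give 7.61 FPKM. The log2 ratio was -1.52 (SE 1.27, 95% interval -4.14 to 1.11) with an adjusted p of 0.521 in limma, and -0.25 without P replicate 1. Genes such as *Cfl1*, *Pfn1* and the cytoplasmic actins have near-identical copies elsewhere in the genome, and how reads with several matches were counted is not given in the sources used here.

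*Myo5b* (chr18:74440936-74771493, plus strand) encodes myosin Vb, the motor on Rab11 vesicles. Its level was 267, 234 and 192 FPKM in NP and 56.3, 133 and 124 FPKM in P. The groups did not overlap, with P replicate 1 the lowest of all 6. The means were 231 ± 37.9 FPKM in NP and 104 ± 41.9 in P (SD, n = 3 each), and the log2 ratio of -1.22 (SE 0.74, 95% interval -2.77 to 0.32) had an adjusted p of 0.413 in limma. It rested on 90 reads or more in each library. *Myo5b* and *Fmn2* had the most alike profiles of the 9 genes, although their levels lay far apart. The root mean square difference over the 6 libraries was 0.226 on log2(FPKM + 1), which shrinks changes in *Fmn2* more than in *Myo5b*. Their ratio within a library was still 1 of the 4 without overlap, with *Fmn2* at 0.0249, 0.0211 and 0.0253 of the *Myo5b* level in NP and at 0.0169, 0.0133 and 0.0187 of it in P. The fourth such pair was *Spire2* and *Myo5b*, with *Spire2* at 0.0804, 0.113 and 0.104 of the *Myo5b* level in NP and at 0.0466, 0.0113 and 0.0426 of it in P. Over all genes tested, the nearest profiles to *Fmn2* were *Tut1* (0.129), *Ung* (0.202) and *Syt11* (0.204).

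**Figure D2:**
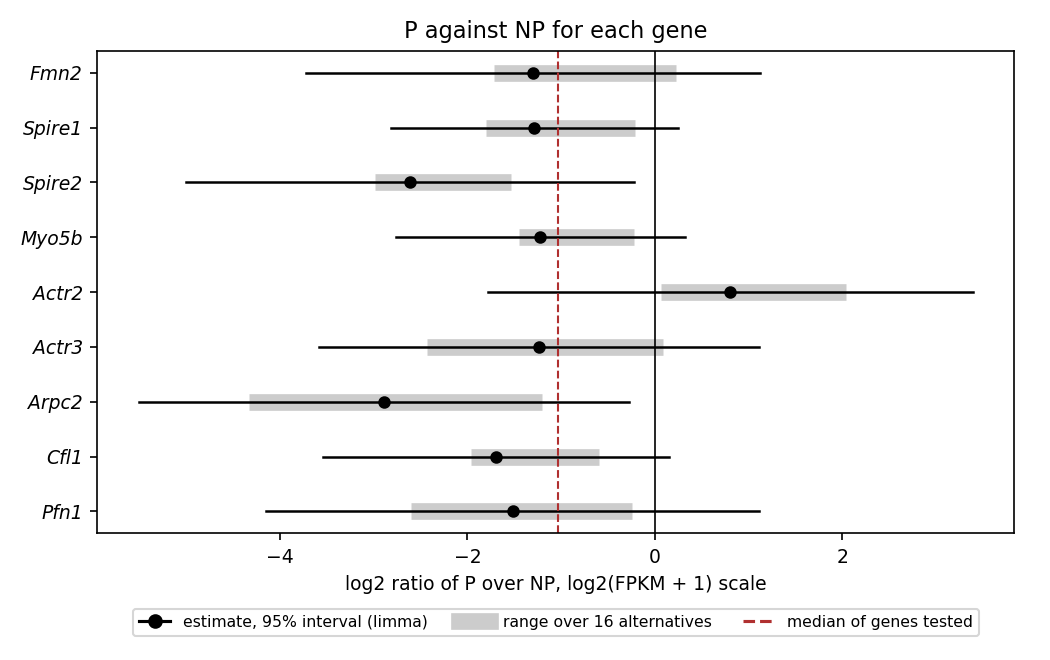
Log2 ratio of P over NP for the 9 genes (points) with 95% intervals from limma (lines), the range over 16 alternative settings (grey bars) and the median of all genes tested at -1.03 (dashed). *Spire2* and *Arpc2* have intervals below 0, and *Actr2* alone lies to the right of 0.

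Since most genes had lower FPKM in P, the ratios were also read against the median of all genes. *Spire2* lay 1.58 and *Arpc2* 1.86 log2 units below that median, *Actr2* lay 1.84 above it, and the other 6 lay between 0.19 and 0.67 below it. After scaling by median-of-ratios, by quantiles and to a common sum, the distance to the median was -1.37, -1.54 and -1.41 for *Spire2*, -1.79, -1.85 and -1.61 for *Arpc2*, and 1.83, 2.03 and 1.87 for *Actr2*. The other 6 genes lay within 1 log2 unit of the median under the same scalings, and *Fmn2*, *Spire1*, *Actr3* and *Myo5b* lay up to 0.22 above it under some of them. These distances moved with single libraries. *Arpc2* lay at -0.27 without P replicate 3 and at -3.13 without P replicate 2, and *Actr2* at 1.09 without P replicate 1, 2.67 without P replicate 3 and 0.999 with a pseudocount of 5. *Actr3* lay at -1.40 without P replicate 1 and 1.02 without P replicate 3, *Pfn1* at 0.79 and -1.45 without the same libraries, and *Spire1* at 0.67 without NP replicate 3 and -0.85 without NP replicate 1. Under these scalings the log2 ratios themselves were between -0.36 and -0.22 for *Spire1*, between -0.29 and -0.22 for *Myo5b* and between -1.84 and -1.53 for *Spire2*, closer to 0, and 1.46, 2.04 and 1.45 for *Actr2*, farther from it.

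The order of mean levels in NP was *Spire1*, *Myo5b*, *Cfl1*, *Arpc2*, *Actr3*, *Spire2*, *Pfn1*, *Fmn2* and *Actr2*. *Spire1* and *Myo5b* overlapped each other and *Myo5b* stood apart from *Cfl1*. *Cfl1*, *Arpc2* and *Actr3* overlapped as neighbours, as did *Spire2* and *Pfn1*, and the steps from *Actr3* to *Spire2*, from *Pfn1* to *Fmn2* and from *Fmn2* to *Actr2* were free of overlap. In P the order was *Spire1*, *Myo5b*, *Actr3*, *Arpc2*, *Cfl1*, *Pfn1*, *Actr2*, *Spire2* and *Fmn2*, and all neighbours overlapped except *Cfl1* and *Pfn1*. On the log2 scale the SD was higher in P than in NP for 7 of the 9 genes, and for 53.0% of all genes. Of the 27 values in P, 20 rested on under 100 reads and 9 on at most 10, against 5 and 0 of 27 in NP.

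**Figure D3:**
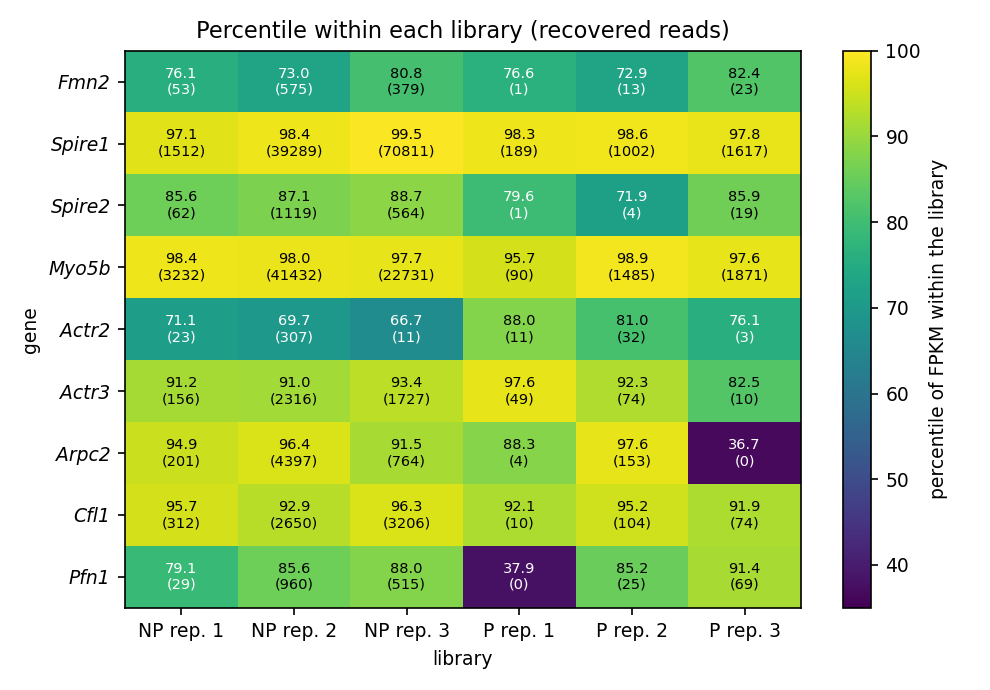
Percentile of each gene's FPKM among all genes of the same library, with recovered reads in brackets. *Spire1* and *Myo5b* stay above percentile 95 in all 6 libraries, and the 2 dark cells, *Arpc2* in P replicate 3 and *Pfn1* in P replicate 1, are values listed at 0.

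The wider actin machinery was described with 7 lists, of which 141 genes were in the table and 107 were tested. Of these, 2 passed the threshold (1.87%), both lower in P, beside the 1.82% of all genes. Values of P lay wholly below NP in 28 (26.2%, beside 23.2% of all genes) and wholly above in 4 (0.633% of all genes), and the median log2 ratio was -1.10. Counts of single lists are to be read against the same shares, and against the 80.1% of all genes with a ratio below 0. *Capzb*, which encodes the beta subunit of the protein that caps growing filament ends, was lower in P, with 103, 273 and 99.6 FPKM in NP and 0, 9.29 and 24.5 FPKM in P. Its log2 ratio was -4.47 with an adjusted p of 0.0650 in limma, and -3.13 without P replicate 1, the shallowest library, in which it was listed at 0. *Arhgdia*, from the list of cortical polarity and its signalling, was lower in P as well, with 198, 501 and 455 FPKM in NP and 59.5, 24.4 and 39.2 FPKM in P, a log2 ratio of -3.18 and an adjusted p of 0.0608. In neither did the groups overlap. Without P replicate 3 both calls held, and without P replicate 1 that of *Arhgdia* held, while leaving out any other library ended them. In all, the calls were lost under 12 and 11 of the 16 alternative settings, with adjusted p between 0.0123 and 0.582 for *Capzb* and between 0.0331 and 0.614 for *Arhgdia*.

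Among the 7 other Arp2/3 subunits and paralogs none passed the threshold, 6 had a log2 ratio below 0, P lay wholly below NP in 3 (beside 80.1% and 23.2% of all genes), and the list's median was -2.03. *Arpc3* held 86.4, 78.5 and 78.9 FPKM in NP and 21.3, 45.5 and 1.50 FPKM in P, even in NP and uneven in P like *Actr3*. *Arpc4*, another core subunit, held 42.4, 36.6 and 132 FPKM in NP and 26.3, 57.7 and 476 FPKM in P, where replicate 3, the lowest P library for *Actr2*, *Actr3*, *Arpc2* and *Arpc3*, was the highest. Of 17 activators and inhibitors of the complex none passed, 16 had a ratio below 0, P lay wholly below NP in 2 and the median was -1.20. *Abi1*, of the WAVE complex that activates Arp2/3, held 133, 42.7 and 20.0 FPKM in NP and 31.8, 23.9 and 0.160 FPKM in P. The WAVE subunit gene *Brk1*, listed as *6720456B07Rik*, held 193, 91.1 and 247 FPKM in NP and 335, 29.7 and 305 FPKM in P, which overlapped.

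Of the 7 other formins and nucleators tested none passed, all 7 had a ratio below 0 (80.1% of all genes) and P lay wholly below NP in 4 (23.2% of all genes), with a median of -1.13. *Fmnl3*, a formin of the cell cortex, stood far above *Fmn2*, with 497, 523 and 488 FPKM in NP and 320, 184 and 203 FPKM in P. The groups were apart and the log2 ratio was -1.13 (adjusted p 0.380 in limma). After scaling by median-of-ratios, by quantiles and to a common sum, *Fmnl3* had log2 ratios of -0.13, -0.08 and -0.20. Its level was 74.6-, 105.9- and 100.4-fold that of *Fmn2* in NP and 337-, 104- and 87.9-fold in P. *Fhod3*, known for its part in muscle sarcomeres, held 47.7, 62.2 and 89.7 FPKM in NP and 15.8, 17.0 and 16.0 FPKM in P.

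Among 19 genes of actin, its monomers' partners and turnover, none passed, and the median was -1.09. Ratios were below 0 in 13 and above in 6, and P lay wholly below NP in 4 (beside 80.1% below 0 and 23.2% wholly below for all genes). *Actb* held 80.8, 134 and 190 FPKM in NP and 45.6, 42.5 and 107.7 FPKM in P, and *Actg1* held 57.1, 68.9 and 146 FPKM in NP and 142, 18.5 and 40.3 FPKM in P. Both overlapped between fractions. *Limk2*, the kinase that switches cofilin off, held 208, 244 and 243 FPKM in NP and 76.1, 101 and 22.0 FPKM in P (adjusted p 0.234 in limma). *Pdxp*, a phosphatase that switches it on, held 69.4, 107.9 and 154 FPKM in NP and 107, 85.8 and 150 FPKM in P. *Limk2* was therefore apart between fractions and *Pdxp* was not, and a difference between them was not tested.

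In the list of filament capping and crosslinking, *Capzb* was the 1 gene of 17 past the threshold, and the list median was -0.61. P lay wholly below NP in 4 and wholly above in 2 (beside 23.2% and 0.633% of all genes). The 2 above, also named after their values were seen, were *Anln*, which encodes anillin of the contractile ring, with 2.83, 9.37 and 5.17 FPKM in NP and 10.1, 13.4 and 33.2 FPKM in P, and *Flna*, with 0.430, 0.241 and 0 FPKM in NP and 15.6, 1.03 and 9.41 FPKM in P. Neither passed the threshold (adjusted p 0.499 and 0.288 in limma). *Rdx*, which ties filaments to the membrane, held 86.9, 132 and 177 FPKM in NP and 166, 144 and 114 FPKM in P, with overlap. None of 19 myosin and Rab11 genes passed, and P lay wholly below NP in 6 (beside 23.2% of all genes), with a median of -0.97. *Myl6*, a light chain, held 36.4, 56.7 and 280 FPKM in NP and 422, 56.6 and 221 FPKM in P. *Rab27a*, a vesicle GTPase, held 87.3, 46.3 and 1.61 FPKM in NP and 24.7, 15.6 and 570 FPKM in P, so that a single P library carried its mean.

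Of 21 genes of cortical polarity and its signalling, *Arhgdia* alone passed, and the median was -0.81. P lay wholly below NP in 5 and wholly above in 2 (beside 23.2% and 0.633% of all genes). Those 2, named after their values were seen, were *Cdc42*, a GTPase of cell polarity, with 21.8, 20.7 and 8.53 FPKM in NP and 30.9, 23.6 and 23.9 FPKM in P, and *Ran*, the GTPase of chromatin signalling in the oocyte, with 14.04, 45.7 and 46.08 FPKM in NP and 46.14, 53.3 and 61.5 FPKM in P, where the shallowest library barely cleared the highest NP value. Their adjusted p values in limma were 0.735 and 0.666. *Pard6a*, of the cortical Par complex, held 304, 429 and 65.7 FPKM in NP and 38.4, 19.0 and 21.7 FPKM in P. The groups were apart without reaching the threshold in the main fit, which took no pairs (adjusted p 0.124 in limma). *Rac1*, the GTPase upstream of WAVE and Arp2/3, held 36.3, 197 and 102 FPKM in NP and 0, 49.5 and 17.5 FPKM in P, which overlapped (adjusted p 0.210 in the same fit). With the replicate number as a block, *Pard6a* and *Rac1* came under the threshold.

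**Figure D4:**
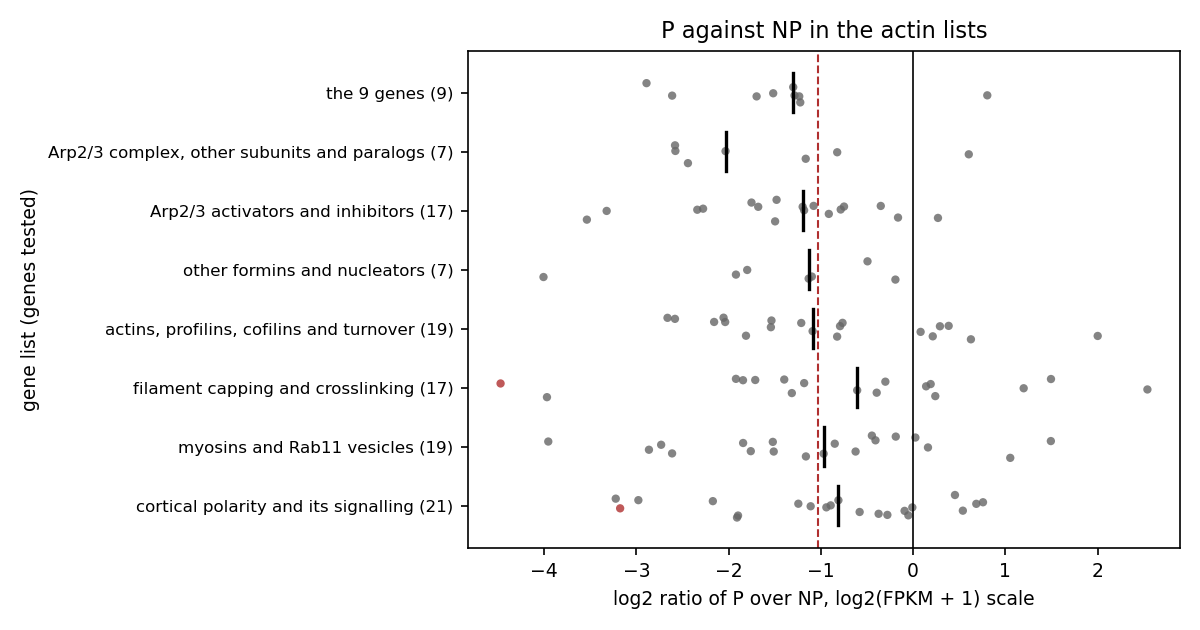
Log2 ratio of P over NP for the 9 genes and the genes tested of 7 actin lists, 1 point a gene, with list medians as black bars, the median of all genes tested as a dashed line and genes with an adjusted p under 0.1 in red. The 2 red points are *Capzb* and *Arhgdia*, and the list medians lie between -2.03 and -0.61.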

How the data were processed

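Per the labels and the study's methods, rRNA was removed, cDNA was amplified as a whole transcriptome, and reads were trimmed with Trim Galore 0.4.1, checked with FastQC 0.11.5 and aligned to GRCm38 with HISAT2 2.0.5. The authors deposited FPKM per gene for 6 libraries, made with Seqmonk, and mean columns that were not used. Not given in the sources used here were the annotation release, the strandedness of counting and any filter on reads. Of 25965 rows, 58 symbols were duplicated and the row with the highest mean was kept. FPKM is relative to each library's reads, so reads outside listed genes lower all values of a library.

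Depth was recovered with GENCODE M21 exon lengths (87.4% of genes). Between 56.2% and 62.7% of low values were whole within 0.02 reads, so read numbers are estimates. For *Fmn2*, *Spire2*, *Arpc2*, *Actr3* and *Cfl1* another exon length was needed (for *Spire1*, by 1 base only), and the smallest whole numbers were taken. Only for *Actr2* did no more than 1 length fit. For *Fmn2* 2 lengths fitted, for *Actr3* 3 and for *Spire1* 4, so other read numbers are possible. Intervals (Poisson, 95%) and limits of 3 reads cover counting error only. The comparison of the fractions used limma 3.58.1 (R 4.3.3, two-sided, trend of the spread, Benjamini-Hochberg, threshold 0.1) on log2(FPKM + 1) for the genes whose mean exceeded 1 FPKM in NP or in P. The pseudocount understates ratios of low genes. The scripts were tested on simulated data. The members, lists and tests were chosen with earlier results of these data known. Beyond the 9 genes, those named were genes of each list past the threshold or, where fewer than 2 passed, the 2 with the highest mean as well, *Actb*, *Actg1* and the nearest profiles. Outside this rule, *Anln*, *Flna*, *Cdc42* and *Ran* were chosen with their values known, as the list genes with P wholly above NP, and *Cyp19a1* and *Nr5a2* as the granulosa markers with the highest levels. For 1 gene that this rule names, values are not reported here. The labels give the libraries the same replicate numbers in NP and P, but no source says that equal numbers share a gradient. The main fit therefore took no pairs, although each lysate gave an NP and a P pool. *Brk1* was matched through RefSeq synonyms.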

Additional observations from a re-analysis of the deposited data

How the results depend on the processing

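Genes past the threshold numbered 192 of 10578. The count was 69 with a pseudocount of 0.1, 0 without the filter on low values (1759 at an unadjusted p of 0.05 in limma), 3 with median-of-ratios, 4 with quantile and 7 with common-sum scaling, 15 without the trend, 65 at an adjusted p of 0.05, and between 1 and 331 with 1 library left out (1 without NP replicate 3, 331 without P replicate 3). With the replicate number as a block it was 668. Deviations of same-numbered libraries correlated at 0.063, 0.099 and 0.116, above the -0.089 to 0.021 of the others. Each lysate gave an NP and a P pool, but correlations cannot decide which libraries shared a lysate. The main fit took no pairs, so it leaves out what the pools of a lysate have in common. By adjusted p in limma, *Pard6a* without P replicate 1 (0.0972) and, with the block, *Pard6a* (0.0613) and *Rac1* (0.0743) came under the threshold. Members past it numbered 0 in all 16 alternatives, including the block, where the lowest adjusted p was 0.115. Members with P wholly below NP were 2, 1 and 0 under common-sum, median-of-ratios and quantile scaling and 5 to 6 with 1 library left out, where the share of all genes was 25.4% to 43.4%. Of 144 member ratios under the alternatives, 141 kept their direction, and 3 turned, *Fmn2* under quantile normalization (0.22) and *Actr3* under the same (0.047) and without P replicate 3 (left-out range -2.43 to 0.085). Among 272 ratios of 17 other genes, 14 turned. After scaling by median-of-ratios, by quantiles and to a common sum these were *6720456B07Rik* (0.83, 0.76, 0.76) and *Actg1* (0.18, 0.21, 0.12). With 1 library left out the ranges were -0.59 to 1.48 for *Arpc4*, -0.76 to 0.97 for *6720456B07Rik*, -0.21 to 0.36 for *Pdxp*, -0.13 to 0.38 for *Rdx* and -0.10 to 2.49 for *Rab27a*. The 3 scalings moved the median of all genes to -0.37, 0.0027 and -0.42. The causes were not tested.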
